A study of Mus musculus with 12 samples.

Results

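The genes of the DNA replication machinery were followed on 4 days of osteoblast differentiation in MC3T3-E1 cells, a preosteoblast line from mouse skull bone. A list of 45 genes was matched by current or older symbol to the array's probe annotation, and 43 of them were measured, out of 12817 genes named on the array. They had 47 probes among 17504 rows tested, and 4 of them had more than 1 probe. The other 2, Cdt1 and Rpa3, were not analysed here.

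There were 12 arrays, 3 for each of Day 2, Day 5, Day 10 and Day 28 in culture. Every culture, Day 2 included, received 8-glycerol phosphate and ascorbic acid in serum-containing medium, so no untreated culture was compared. The submitters' stage names are log phase growth for Day 2, growth arrest for Day 5, differentiating osteoblast for Day 10 and mature osteoblast for Day 28. Each array paired Cy3-labelled cDNA of the cells with Cy5-labelled cDNA of a commercial mouse reference RNA, and no dye swap was made. MC3T3-E1 is an established line grown on plastic, and the labels do not say whether the 3 replicates of a day came from separate dishes. Any p-value given here therefore rests on array-to-array spread that may be technical.

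Before a cell copies its DNA, the origin recognition complex with Cdc6 and Cdt1 loads the Mcm2-7 helicase onto origins, a step called licensing that geminin (Gmnn) restrains. Cyclin E with its kinase and the Cdc7 kinase then start the helicase, which Cdc45 and the GINS complex complete. Primase and polymerase alpha begin each strand, the delta and epsilon polymerases extend it on the Pcna clamp, and ribonucleotide reductase and thymidylate enzymes supply the nucleotides. Many of these genes are known targets of E2F factors, which RB proteins hold in check in cells that have left the cycle, as preosteoblasts do before they mature.

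Because many of these genes are known E2F targets, promoter windows of 300 bases (250 before and 50 after the start of a gene, RefSeq, build GRCm38.p6) were searched on both strands for E2F-type letters. The 4 strings searched were TTTCGCGC, TTTGGCGC, TTCCCGCC and TTTCCCGC, the last pair of which overlap where the letters run together. RefSeq windows matched 34 of the 43 genes, in 40 windows, and not Ccne2, Gins1, Gins2, Gins4, Gmnn, Mcm4, Pole, Prim2 or Rfc2. At least 1 of the strings stood in 16 of the 40 windows (40%), against 3.49% of all 32851 windows and 4.52% of the 21262 windows of protein-coding genes. The CCAAT letters stood in 52.5% of the members' windows and 37.4% of all, and TTTGAA, the core of a motif of late cell cycle promoters, in 17.5% and 17.9%. Among the helicase subunits, Mcm3, Mcm5, Mcm6 and Mcm7 had a window with the letters, the window of Mcm2 held none of the 4 strings, and Mcm4 had no window. Printed here are these 4 windows and those of Orc6 and Dut, the genes called below, which do not hold any of the 4 strings. Capitals mark the E2F-type letters on either strand, and every window runs 5′ to 3′ on the strand of its gene.
Mcm3 promoter (chr1:20820263-20820562, minus strand): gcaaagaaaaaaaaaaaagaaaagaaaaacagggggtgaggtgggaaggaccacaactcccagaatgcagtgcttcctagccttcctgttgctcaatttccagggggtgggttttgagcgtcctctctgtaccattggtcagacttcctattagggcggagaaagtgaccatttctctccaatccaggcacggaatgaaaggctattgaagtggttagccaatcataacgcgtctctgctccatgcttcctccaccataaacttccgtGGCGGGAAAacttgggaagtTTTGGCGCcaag
Mcm5 promoter (chr8:75109259-75109558, plus strand): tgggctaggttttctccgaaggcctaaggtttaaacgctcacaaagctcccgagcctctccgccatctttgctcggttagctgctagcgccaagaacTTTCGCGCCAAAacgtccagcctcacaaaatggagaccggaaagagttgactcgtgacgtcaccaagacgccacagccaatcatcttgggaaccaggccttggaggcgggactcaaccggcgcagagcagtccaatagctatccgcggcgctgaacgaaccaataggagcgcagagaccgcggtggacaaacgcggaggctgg
Mcm6 promoter (chr1:128359656-128359955, minus strand): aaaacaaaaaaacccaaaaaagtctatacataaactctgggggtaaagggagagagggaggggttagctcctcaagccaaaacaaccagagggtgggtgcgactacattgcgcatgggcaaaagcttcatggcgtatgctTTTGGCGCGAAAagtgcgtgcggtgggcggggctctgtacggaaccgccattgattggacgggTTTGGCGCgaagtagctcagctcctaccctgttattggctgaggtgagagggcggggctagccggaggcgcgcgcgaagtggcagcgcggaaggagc
Mcm7 promoter (chr5:138171834-138172133, minus strand): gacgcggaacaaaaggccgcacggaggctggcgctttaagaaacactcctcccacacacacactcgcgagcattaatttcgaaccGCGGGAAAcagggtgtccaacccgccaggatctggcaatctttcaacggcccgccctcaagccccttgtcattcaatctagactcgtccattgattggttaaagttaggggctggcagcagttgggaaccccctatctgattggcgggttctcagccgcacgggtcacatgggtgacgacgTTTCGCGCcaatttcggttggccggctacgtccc
Orc6 promoter (chr8:85299382-85299681, plus strand): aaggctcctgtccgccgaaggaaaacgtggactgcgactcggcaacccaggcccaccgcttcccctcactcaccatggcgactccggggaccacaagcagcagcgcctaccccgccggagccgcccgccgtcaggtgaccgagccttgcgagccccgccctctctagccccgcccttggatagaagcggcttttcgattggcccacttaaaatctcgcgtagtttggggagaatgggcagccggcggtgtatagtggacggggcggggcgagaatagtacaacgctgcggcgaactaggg
Dut promoter (chr2:125247265-125247564, plus strand): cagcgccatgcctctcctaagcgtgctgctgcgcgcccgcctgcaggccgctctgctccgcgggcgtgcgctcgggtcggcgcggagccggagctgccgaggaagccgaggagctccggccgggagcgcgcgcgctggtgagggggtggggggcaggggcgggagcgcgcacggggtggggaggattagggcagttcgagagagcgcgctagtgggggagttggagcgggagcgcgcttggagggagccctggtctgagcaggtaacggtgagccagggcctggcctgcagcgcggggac

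Such a match is a description of letters, not a site of binding. Mcm7 has another RefSeq window, further downstream on its strand, with none of the strings. The 16 genes with E2F-type letters had a median log2 difference of -0.23 between Day 28 and Day 2, and the 18 without them one of -0.25, a pair of medians close to each other.

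Values below are log2 ratios of cells to reference RNA, centred on each array's median, and a difference subtracts the earlier day from the later. The sources used here do not state the base of the log, taken as 2, or the direction, and that positive values mean more RNA in the cells is likely. The basis is that 9 of 10 measured osteoblast markers had a mean ratio above 0 over the 12 arrays (mean 1.75, SD 1.05 over genes) while 3 of 9 markers of blood, liver, epithelial and nerve cells did (mean -1.11, SD 2.08). Runx2 and Bglap were among the markers without a probe. All 10 osteoblast markers had a difference above 0 in Day 28 against Day 2. Of them, limma called 4 higher at an adjusted p under 0.05 (40%, against 3.68% of all rows). These were Dmp1 (2.52), Pth1r (1.84), Sparc (1.30) and Tnfrsf11b (0.94). Day 10 replicate 3 stood apart over all rows, with a mean correlation of 0.795 with the other arrays of its day, against 0.838 to 0.919 for the other 11 arrays. Fewer dividing cells in a dish and less of an RNA in each cell cannot be told apart in these bulk samples.

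DNA replication genes stood highest on Day 2. The mean ratio was highest on Day 2 for 34 of the 43 genes, on Day 5 for 3, on Day 10 for 2 and on Day 28 for 4, while 28.5% of all rows had their highest mean on Day 2. None of the 43 had its lowest mean on Day 2 (25.7% of all rows). Without Day 5 replicate 1, 25 were highest on Day 2 (27.4% of all rows) and 12 on Day 5 (26.3% of all rows). With Day 10 replicate 3 left out as well, 23 were highest on Day 2, beside 25.9% of all rows. In that setting 2 were lowest on Day 2, beside 23.8% of all rows.

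The median ratio of the 43 genes on each array shows the same order. The Day 2 arrays had medians of -0.77, -0.64 and -0.78, those of Day 5 had -1.22, -0.82 and -0.98, those of Day 10 had -0.98, -0.91 and -1.40, and those of Day 28 had -0.999, -0.998 and -1.03. All 9 later arrays lay below all 3 Day 2 arrays. Day 5 replicate 1 and Day 10 replicate 3 were the lowest of their days, and the Day 28 arrays lay closest together.

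**Figure D1:**
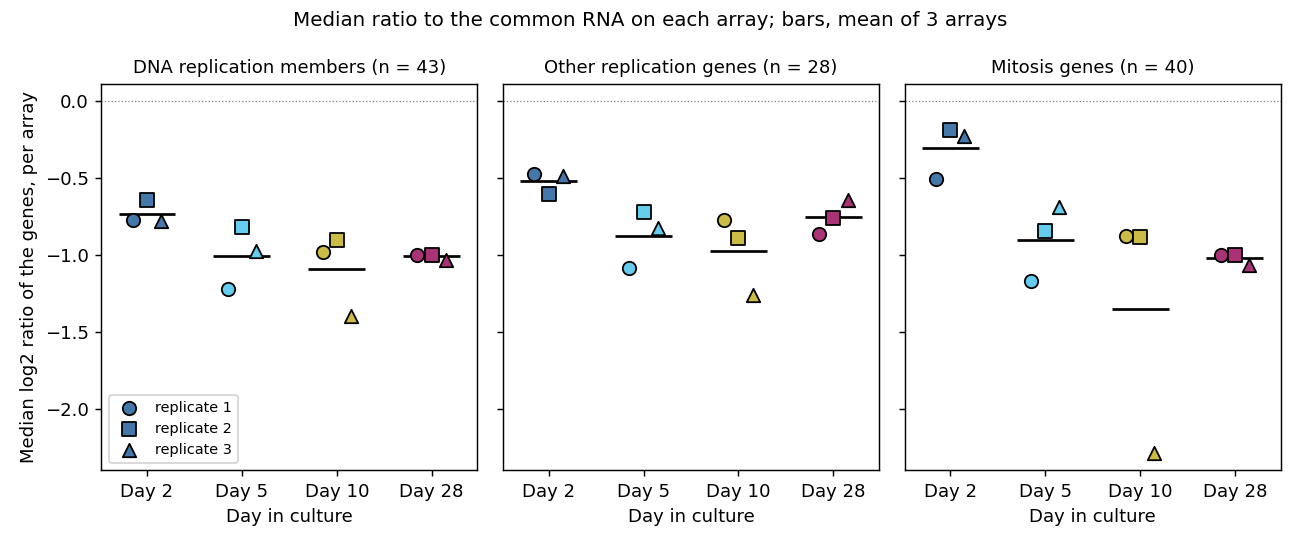
Median log2 ratio (vertical axis) of the 43 DNA replication genes, 28 other replication genes and 40 mitosis genes on each array, by day in culture; markers are replicates and bars the mean of 3 arrays. The Day 2 arrays are highest in all 3 panels, and Day 10 replicate 3 is lowest, at -1.40, -1.26 and -2.29.

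Both low arrays were low in most of the genes. Day 10 replicate 3 held the lowest of all 12 values for 25 of the 43 genes (12.7% of all rows) and Day 5 replicate 1 for 9 (9.55% of all rows). Within its day, replicate 3 of Day 10 was lowest for 34 genes (37.5% of all rows), and replicate 1 of Day 5 also for 34 (34.4% of all rows). Over Days 2, 5, 10 and 28 the members had a median SD of 0.16, 0.31, 0.35 and 0.11, while that of all rows was 0.18, 0.20, 0.19 and 0.14. Replication genes thus varied more than other rows between the arrays of Day 5 and of Day 10, and not between those of Day 2 or Day 28.

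**Figure D2:**
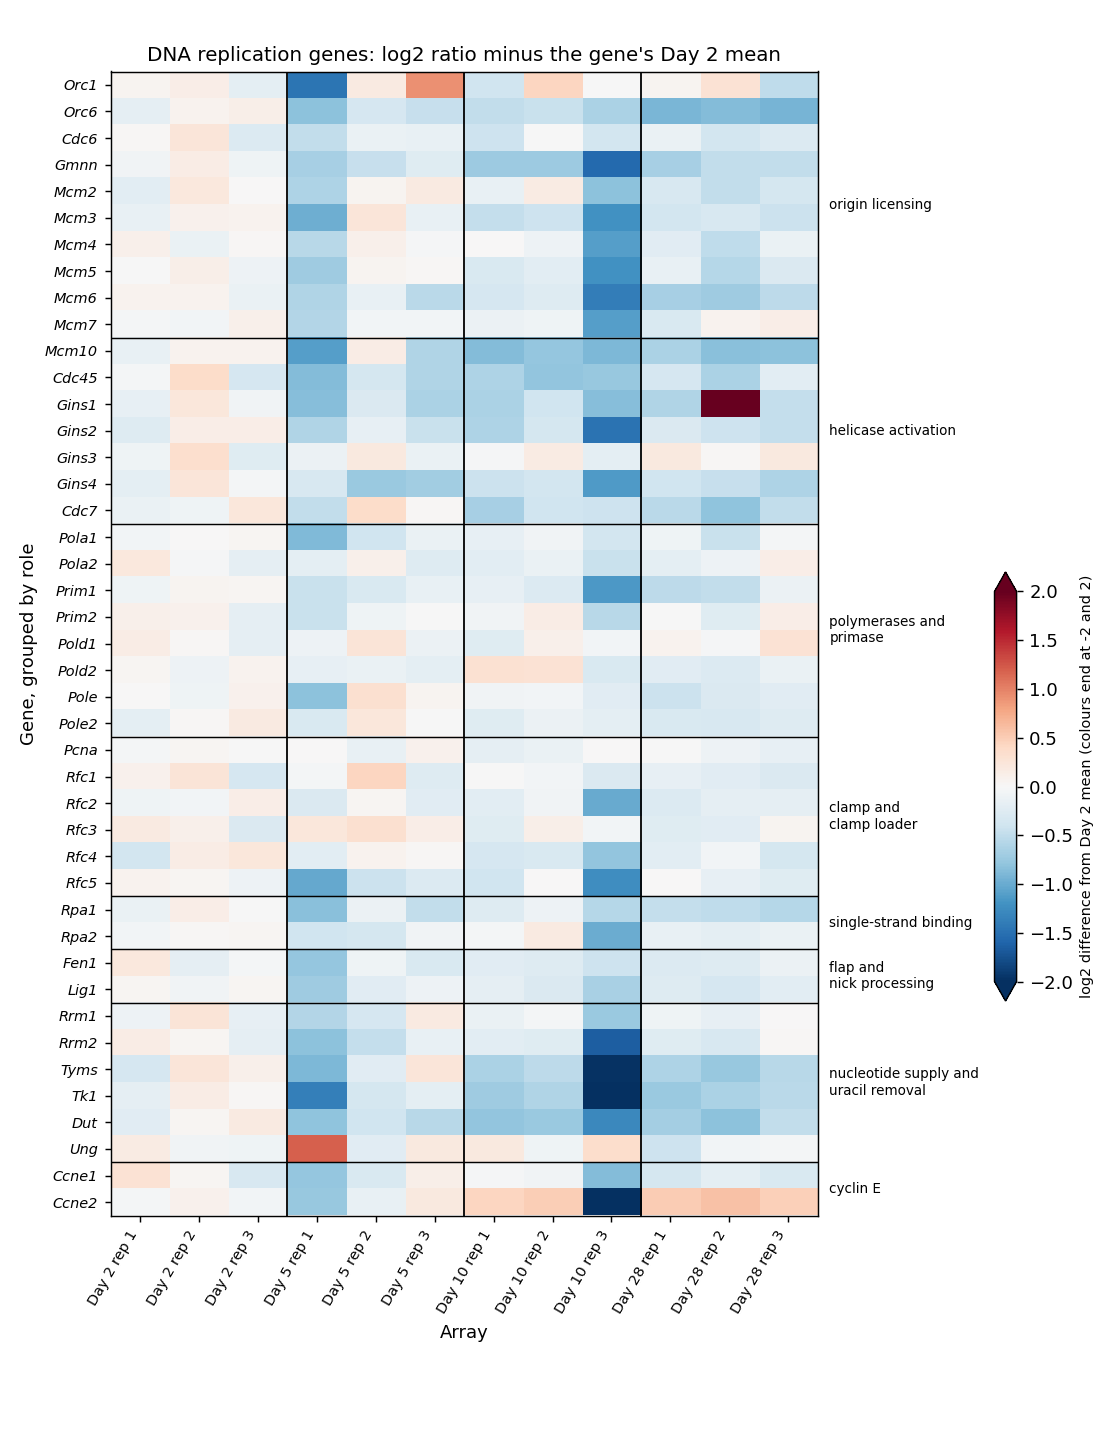
Log2 ratio minus the Day 2 mean of the same gene (colour, ending at -2 and 2) for 43 genes in rows, grouped by role, and 12 arrays in columns. Blue fills most of Day 5 replicate 1 and Day 10 replicate 3 and lies paler over the Day 28 arrays; Gins1 on Day 28 replicate 2 and Ung on Day 5 replicate 1 stand out in red.

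Most members were below the reference RNA throughout. A ratio under 0 on all 12 arrays was seen for 31 of 43 genes (17.1% of all rows), and above 0 on all 12 for 1, Pcna, the sliding clamp. Day means ranged over the genes between -1.99 and 0.21 on Day 2, -2.23 and 0.32 on Day 5, -2.45 and 0.09 on Day 10, and -2.21 and 0.21 on Day 28.

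Over the 4 days, a change was called for 3 genes, Orc6, Dut and Gmnn, by limma's F test (6.98% of 43, against 5.32% of all rows). That share is near the background. Of the 4 pairs of days tested (Day 5 against Day 2, Day 10 against Day 5, Day 28 against Day 10 and Day 28 against Day 2), calls were made in the last, for Orc6 and Dut, both lower (2 of 43, or 4.65%, against 5.69% of all rows called, 2.01% called lower and 3.68% called higher). At an unadjusted p under 0.05, 8 were lower and 0 higher (8.98% and 9.28% of all rows). The groups were separated by value more often: for 21 of 43 genes (48.8%) all 3 Day 28 arrays were below all 3 Day 2 arrays, against 14.4% of all rows.

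Orc6, a subunit of the origin recognition complex, fell by 0.90 on Day 28 relative to Day 2 (SE 0.14, limma adjusted p = 0.002), a 1.87-fold lower ratio. Its log2 ratios were -0.26, -0.02 and 0.03 on the Day 2 arrays, -0.90, -0.43 and -0.55 on those of Day 5, -0.58, -0.53 and -0.71 on those of Day 10 and -0.999, -0.96 and -1.02 on those of Day 28. The 3 Day 28 arrays lay close together, below every array of the other days. On Day 5 the difference from Day 2 was -0.54 (adjusted p = 0.182), on Day 10 the difference from Day 5 was 0.02, and on Day 28 the difference from Day 10 was -0.38 (adjusted p = 0.339). The call of Day 28 against Day 2 was kept whichever array was left out, with adjusted p between 0.00111 and 0.0136, and with quantile normalization. The F test (adjusted p = 0.0119) was lost without Day 2 replicate 2 (adjusted p = 0.0531) or replicate 3 (adjusted p = 0.0569).

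Dut, which breaks down dUTP so that uracil is kept out of DNA, fell by 0.67 (SE 0.18, limma adjusted p = 0.0447), a 1.59-fold lower ratio. It read -0.94, -0.68 and -0.54 on the Day 2 arrays, -1.52, -1.11 and -1.26 on those of Day 5, -1.50, -1.47 and -2.01 on those of Day 10 and -1.40, -1.53 and -1.21 on those of Day 28. No later array reached the lowest Day 2 value, and the days after Day 2 overlapped one another. The call was lost without 7 of the 12 arrays (without Day 2 replicates 2 and 3, Day 5 replicate 3, Day 10 replicate 1, and each Day 28 array, adjusted p between 0.0533 and 0.175), with quantile normalization (adjusted p = 0.0572) and with the replicate number as a block (adjusted p = 0.0748). Its F test (adjusted p = 0.0282) was lost under both of the last settings and without Day 2 replicates 2 and 3 and Day 28 replicates 1 and 2 (adjusted p between 0.057 and 0.127).

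Gmnn, the inhibitor of licensing, changed over the 4 days (F test adjusted p = 0.0469) without a call between any pair of days tested. Its ratios were -1.35, -1.13 and -1.37 on the Day 2 arrays, -1.94, -1.74 and -1.53 on those of Day 5, -2.01, -2.02 and -2.83 on those of Day 10 and -1.95, -1.77 and -1.77 on those of Day 28. Day 10 was below Day 5 on every array, at a difference of -0.55 (adjusted p = 0.44), and Day 28 above Day 10 on every array, at 0.46 (adjusted p = 0.439). All later arrays were below all Day 2 arrays. The F test call was lost without any 1 of 9 arrays (adjusted p between 0.0578 and 0.148, all arrays other than those of Day 10), with quantile normalization (adjusted p = 0.271) and with the replicate block (adjusted p = 0.0795).

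**Figure D3:**
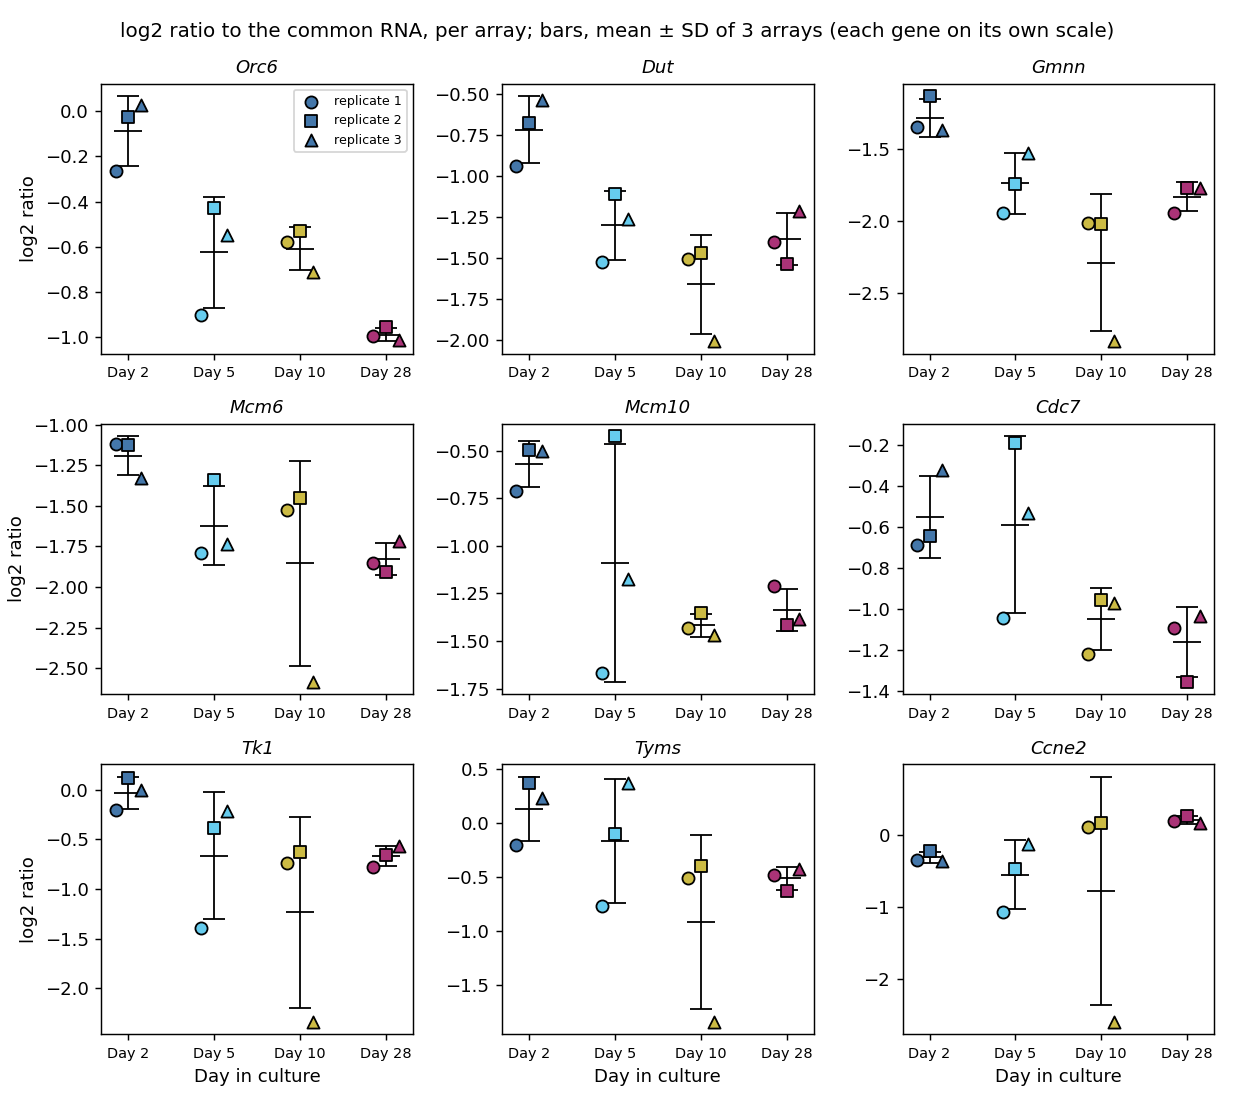
Log2 ratio to the common reference RNA (vertical axes, each gene on its own scale) on every array for 9 genes, by day in culture; bars are mean ± SD of 3 arrays. Day 28 arrays lie below Day 2 arrays for 8 of them and above for Ccne2, and Day 10 replicate 3 (triangle) is far from its day's other arrays in Ccne2, Tk1, Tyms, Mcm6 and Gmnn.

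Among the licensing genes, all 10 measured were lower on Day 28 than on Day 2, with a median difference of -0.35, and 6 of them had no overlap between these days (51.9% of all rows were lower, and 14.4% lower with no overlap). The helicase subunit Mcm6 was next to Orc6, at -0.63 (SE 0.24, adjusted p = 0.18), with ratios of -1.12, -1.13 and -1.33 on the Day 2 arrays, -1.79, -1.34 and -1.73 on those of Day 5, -1.53, -1.45 and -2.58 on those of Day 10 and -1.85, -1.91 and -1.72 on those of Day 28. Day 10 replicate 3 was the lowest of the 12. Its partners Mcm2, Mcm3, Mcm4 and Mcm5 differed by -0.39, -0.37, -0.29 and -0.33, and Mcm7 by -0.03, none past the threshold (adjusted p from 0.461 to 0.971). The 6 subunits work as a ring with 1 copy of each, and on Day 10 replicate 3 they were all low together, by -0.77 (Mcm3) to -1.09 (Mcm6) relative to the mean of replicates 1 and 2. Cdc6, the loader, differed by -0.25. Orc1, the largest origin subunit, had ratios of -1.02, -0.93 and -1.26 on the Day 2 arrays, -2.52, -0.89 and -0.15 on those of Day 5, -1.46, -0.64 and -1.08 on those of Day 10 and -1.01, -0.78 and -1.58 on those of Day 28, scattered so widely on Day 5 that its difference of -0.06 carries an SE of 0.44.

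Helicase activation genes had a median difference of -0.40 between Day 28 and Day 2, 5 of 7 lower (51.9% of all rows) and 4 with no overlap (14.4% of all rows). Mcm10, which links the helicase to polymerase alpha, differed by -0.77 (SE 0.23, adjusted p = 0.0776). It read -0.71, -0.50 and -0.50 on the Day 2 arrays, -1.67, -0.42 and -1.18 on those of Day 5, -1.43, -1.35 and -1.47 on those of Day 10 and -1.21, -1.41 and -1.38 on those of Day 28. Day 10 and Day 28 were tight and low, while on Day 5 replicate 2 was above every Day 2 array and replicate 1 was the lowest of all 12. Without Day 5 replicate 1 or Day 5 replicate 2 the call was made (adjusted p = 0.025 and 0.00839). The second probe of the gene differed by -0.31, and on it the Day 10 and Day 28 arrays overlapped those of Day 2.

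Cdc7, the kinase that fires origins, had ratios of -0.69, -0.64 and -0.32 on the Day 2 arrays, -1.04, -0.19 and -0.53 on those of Day 5, -1.22, -0.95 and -0.97 on those of Day 10 and -1.09, -1.35 and -1.03 on those of Day 28. It was within or above the Day 2 range on 2 of 3 Day 5 arrays and below it on all 6 later ones, with Day 28 differing from Day 2 by -0.61 (SE 0.20, adjusted p = 0.0997). Its regulatory partner Dbf4, not on the list, differed by -0.87 (adjusted p = 0.1). Cdc45 differed by -0.40 and the GINS subunits Gins4 and Gins2 by -0.49 and -0.40, the second probe of Gins2 by 0.04. Gins3 differed by 0.14. Gins1 read -0.77, -0.39 and -0.68 on the Day 2 arrays, -1.46, -0.91 and -1.24 on those of Day 5, -1.25, -1.02 and -1.47 on those of Day 10 and -1.21, 1.64 and -1.09 on those of Day 28. Its Day 28 mean of -0.22 ± 1.61 (SD, n = 3) rests on replicate 2, which had the highest ratio of all members on any array, and the other Day 28 arrays lay near its Day 10 values.

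Polymerase and primase genes had a median of -0.20, with 7 of 8 lower (51.9% of all rows) and 4 with no overlap (14.4% of all rows). Prim1, the catalytic primase subunit, was at -0.37 (adjusted p = 0.417), Pole, the leading-strand polymerase, at -0.31 and its partner Pole2 at -0.29. The Pole2 ratios were -0.60, -0.38 and -0.21 on the Day 2 arrays, -0.71, -0.17 and -0.40 on those of Day 5, -0.64, -0.52 and -0.59 on those of Day 10 and -0.70, -0.71 and -0.66 on those of Day 28. The 3 Day 28 arrays lay below all of Day 10 and of Day 2, and level with Day 5 replicate 1. The second probe of Pole2 differed by -0.17, and on it Day 28 (-0.35, -0.34 and -0.29) overlapped Day 2 (-0.38, -0.03 and -0.06). Pold1, the catalytic subunit of polymerase delta, was the only gene of this role above 0, at 0.11 (SE 0.16). Pola2 and Prim2 were nearest to 0, at -0.05 and -0.04, and the second probe of Pola2 was at 0.07.

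The clamp and its loader had a median of -0.17, within a narrow range of -0.22 to -0.09 over 6 genes. All 6 were thus lower (51.9% of all rows), and 1 had no overlap (16.7%, against 14.4% of all rows), a share near the background. Pcna, a much-used marker of dividing cells, read 0.16, 0.23 and 0.18 on the Day 2 arrays, 0.20, 0.05 and 0.28 on those of Day 5, 0.01, 0.06 and 0.19 on those of Day 10 and 0.19, 0.09 and 0.02 on those of Day 28. All 4 days overlapped, and the difference of -0.09 (SE 0.12, adjusted p = 0.775) was smaller than its error. Rfc5, a loader subunit, was at -0.58 on Day 5 against Day 2, at -0.13 on Day 28 against Day 2, and its Day 10 arrays read -1.37, -0.97 and -2.22. Rfc3, of the same complex, was highest on Day 5, where its 3 arrays (0.32, 0.42 and 0.22) were above all 3 of Day 10 (-0.15, 0.21 and 0.04).

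Rpa1, the large subunit of the protein that coats unwound DNA, differed by -0.52 (SE 0.18, adjusted p = 0.12) with no overlap between Day 28 and Day 2. Its ratios were -0.14, 0.12 and -0.02 on the Day 2 arrays, -0.84, -0.13 and -0.50 on those of Day 5, -0.27, -0.11 and -0.58 on those of Day 10 and -0.49, -0.52 and -0.58 on those of Day 28. Rpa2 differed by -0.15. Fen1 and Lig1, which trim and seal the fragments of the lagging strand, differed by -0.22 and -0.27, and Lig1 had no overlap between these days.

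In nucleotide supply, all 6 genes were lower on Day 28, with a median of -0.41 and 3 without overlap (14.4% of all rows). Tk1, which salvages thymidine, read -0.20, 0.12 and -0.0046 on the Day 2 arrays, -1.40, -0.38 and -0.22 on those of Day 5, -0.74, -0.63 and -2.34 on those of Day 10 and -0.78, -0.66 and -0.57 on those of Day 28. Tyms, which makes thymidylate anew, read -0.21, 0.37 and 0.23 on the Day 2 arrays, -0.77, -0.10 and 0.37 on those of Day 5, -0.51, -0.40 and -1.84 on those of Day 10 and -0.48, -0.63 and -0.42 on those of Day 28. Both lay lower on every Day 28 array than on any Day 2 array, by -0.64 (SE 0.39) and -0.64 (SE 0.35), and both were lowest by far on Day 10 replicate 3. Adjusted p for Day 28 against Day 2 was 0.428 and 0.365. Of the reductase subunits, Rrm2 differed by -0.18 and Rrm1 by -0.08 from Day 2, and both days overlapped. Ung, which cuts uracil out of DNA, had its highest ratio, 0.95, on Day 5 replicate 1, where most members were low.

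Ccne2, a cyclin E gene, was the member with all 3 Day 28 arrays above all 3 Day 2 arrays (1 of 43, against 14.2% of all rows). Its ratios were -0.35, -0.23 and -0.36 on the Day 2 arrays, -1.07, -0.47 and -0.12 on those of Day 5, 0.11, 0.17 and -2.61 on those of Day 10 and 0.19, 0.27 and 0.17 on those of Day 28. Apart from Day 10 replicate 3, which was under every other array, Day 10 and Day 28 were above all of Day 2 and of Day 5. The difference of 0.52 on Day 28 was not called when all arrays were fitted (SE 0.54, adjusted p = 0.682) and was called as a rise from the 6 arrays of Day 2 and Day 28 alone (adjusted p = 0.0234). Ccne1, its paralog, differed by -0.28 (adjusted p = 0.628), and its Day 28 and Day 2 arrays overlapped.

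**Figure D4:**
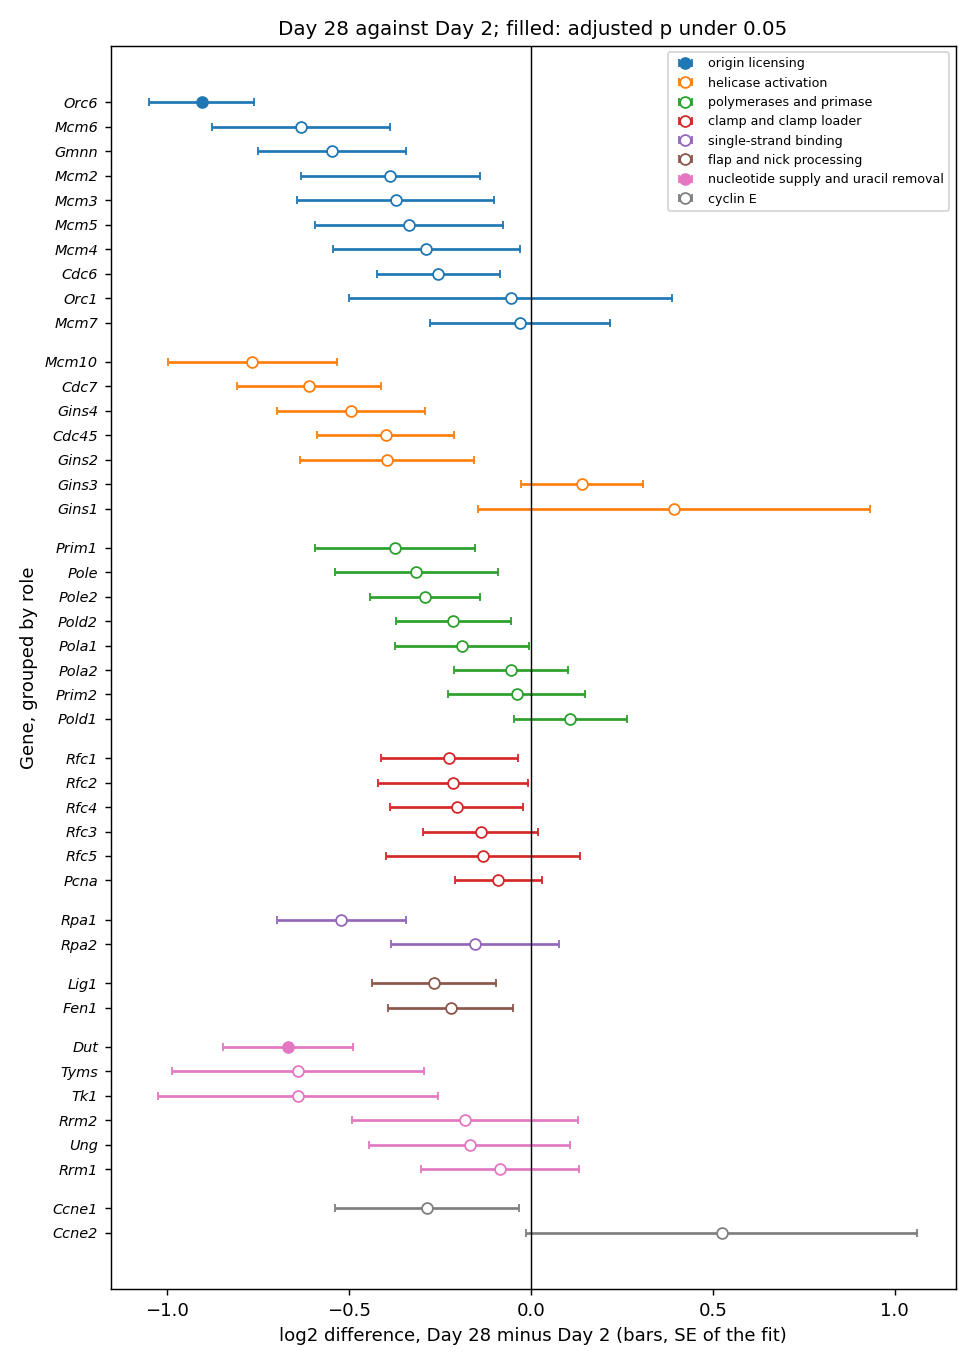
Difference in log2 ratio, Day 28 minus Day 2 (horizontal axis; bars, SE of the fit), for 43 genes grouped by role and coloured by it. Filled points, Orc6 and Dut, had an adjusted p under 0.05; 39 of 43 genes lie left of 0, and Gins1, Gins3, Pold1 and Ccne2 lie right of it.

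Day 28 against Day 2 thus had 39 of 43 members below 0 (51.9% of all rows), with a median of -0.25 against -0.01 over all rows and a range of -0.90 (Orc6) to 0.52 (Ccne2). The number of members called differed with the arrays in the fit. From the 6 arrays compared, 9 were lower (Orc6, Gmnn, Mcm6, Mcm10, Cdc7, Rpa1, Tyms, Tk1 and Dut) and 1 higher (Ccne2), which is 23.3% of members beside 8.85% of all rows called. With array weights, and without Day 5 replicate 2 and Day 10 replicate 3, 7 were lower, Orc6, Gmnn, Mcm6, Mcm10, Cdc7, Rpa1 and Dut in both. That is 16.3% of members, while calls over all rows also increased, to 9.72% with the weights and 9.73% without the 2 arrays. Leaving out Day 5 replicate 1 gave 4 (Orc6, Mcm10, Cdc7 and Dut; 9.3% of members, 5.48% of all rows), and leaving out Day 10 replicate 3 also gave 4 (Orc6, Gmnn, Mcm6 and Dut), a share near the 8.18% of all rows called there. It was 1, Orc6, without each of the 7 arrays named for Dut, with quantile normalization and with the replicate block (2.33% of members, beside 3.02% to 5.74% of all rows). Macrophage and osteoclast markers had 1 of 4 measured members called higher on Day 28, Ctsk (2.63), beside 3.68% of all rows. Their array medians were -0.82 to -0.43 on Day 28 and -0.73 to -0.35 on Day 2. Adipocyte markers had 1 of 5, Cebpa (1.64), beside the same 3.68%, with medians of -0.0001 to 0.18 on Day 28 and 0.22 to 0.38 on Day 2. Their part in the replication values was not tested.

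Growth arrest, Day 5 against Day 2, gave no call among the members. Each comparison of neighbouring days shares arrays with the next, so their values are given side by side and not correlated. limma called 0 of 43 members (0.337% of all rows), and 10 were lower and 0 higher at an unadjusted p under 0.05, against 5.11% of all rows lower and 5.02% higher. By value, 39 of 43 were below 0 (50.5% of all rows) with a median of -0.26 and a range of -0.64 to 0.38, and 14 had no overlap and were lower (32.6%, against 7.63% of all rows), while 0 had no overlap and were higher (7.46% of all rows). The largest differences were those of Tk1 (-0.64, adjusted p = 0.629), Cdc45 (-0.60, adjusted p = 0.263), Gins1 (-0.59), Gins4 (-0.59), Dut (-0.58) and Rfc5 (-0.58). Without Day 5 replicate 1, Tk1 was at -0.27 and Rfc5 at -0.36, and the other four were between -0.72 and -0.46. Helicase activation had the lowest median by role, -0.52, with all 7 members below 0, whereas the clamp and its loader had one of -0.03. The median over the members was -0.09 without Day 5 replicate 1, -0.32 without replicate 2 and -0.38 without replicate 3. Over all rows, replicate 2 had the lowest mean correlation with the other arrays of Day 5 (0.838, against 0.866 and 0.868). Without Day 5 replicate 2 and Day 10 replicate 3 1 member was called, Mcm10, lower by 0.85 (2.33% of members, beside 1.32% of all rows). With all arrays fitted, the second probe of Mcm10 differed by -0.06 between Day 5 and Day 2.

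In Day 10 against Day 5 the sign of the members' median turned with 1 array. limma called 0 of 43 (0.149% of all rows, and 0.0286% lower), with 4 lower and 0 higher at an unadjusted p under 0.05 (4.78% of all rows lower and 4.21% higher). The median difference was -0.15, with 33 of 43 below 0 (52.1% of all rows). Leaving out Day 10 replicate 3 gave 0.07, leaving out Day 5 replicate 1 gave -0.28 and leaving out Day 5 replicate 2 gave -0.05. Tyms (-0.75), Tk1 (-0.57), Gmnn (-0.55), Cdc7 (-0.46), Rfc4 (-0.43) and Gins2 (-0.41) had the lowest values. Without Day 10 replicate 3 they were at -0.28, -0.02, -0.27, -0.50, -0.28 and -0.07 in the same order of genes, so all but Cdc7 drew part of their size from that array. Gmnn, Rfc3 and Rfc4 were the 3 genes whose Day 10 arrays all lay below those of Day 5 (6.98%, against 6.68% of all rows), a share at the background, and 0 genes had them all above (6.11% of all rows).

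Maturation, Day 28 against Day 10, was likewise without a call. limma called 0 of 43 (0.84% of all rows, and 0.708% higher), and 1 was higher (6.07% of all rows) and 1 lower (4.69% of all rows) at an unadjusted p under 0.05. The median was 0.13, with 11 of 43 below 0 (47.9% of all rows). Leaving out Day 10 replicate 3 gave -0.06, replicate 2 gave 0.26 and replicate 1 gave 0.21. Gins1 (1.03) and Ccne2 (0.99) had the largest values, followed by Tk1 (0.57), Rrm2 (0.52), Gmnn (0.46) and Gins2 (0.42). The value of Gins1 rests on Day 28 replicate 2. The others were smaller without Day 10 replicate 3, with Ccne2 at 0.07, Tk1 at 0.02, Rrm2 at 0.04, Gmnn at 0.18 and Gins2 at 0.08. Orc6 and Pole2 were lower on every Day 28 array than on any of Day 10 (2 of 43, against 8.51% of all rows), at -0.38 and -0.11, and Gmnn was higher on every one (1 of 43, against 9.74% of all rows). Without Day 10 replicate 3 the lowest mean of the members lay on Day 5 for 16, on Day 10 for 11 and on Day 28 for 16, whereas with it Day 10 held 27.

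Other replication genes, outside the list, were also mostly lower on later days. Of 28 measured, none was called between days by limma (5.69% of all rows in Day 28 against Day 2). In that comparison, 7 were lower (25%, against 8.98% of all rows) and 0 higher (9.28% of all rows) at an unadjusted p under 0.05. The median was -0.22, with 19 below 0 (67.9%, against 51.9% of all rows). Beside Dbf4, the largest differences were those of Top2a, which untangles copied DNA (-0.73, adjusted p = 0.435), and Timeless, of the fork protection complex (-0.59, adjusted p = 0.128). Rnaseh2c, a subunit of the enzyme that removes RNA from DNA, was called by the F test (adjusted p = 0.0383). That is 1 of 28 genes (3.57%, against 5.32% of all rows). Its means were 0.34, -0.46, -0.08 and 0.58 on Days 2, 5, 10 and 28. It was thus lowest on Day 5 and highest on Day 28.

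Among the G1/S regulators 14 of 24 were below 0 in Day 28 against Day 2 (58.3%, against 51.9% of all rows), near the background. Their median was -0.18, and the other 10 were above 0, by up to 0.47. By value, 8 had all Day 28 arrays below all Day 2 arrays (33.3%, against 14.4% of all rows). For 1 of the 24 they were all above (14.2% of all rows). limma called 0 of 24 (5.69% of all rows). At an unadjusted p under 0.05, 1 was lower (4.17%, against 8.98% of all rows) and 0 higher (9.28% of all rows). Ccna2, the S phase cyclin, differed by -0.69 (adjusted p = 0.474), Cdkn1a, an inhibitor of cyclin-dependent kinases, by -0.48 (adjusted p = 0.531) and Cdk4, a G1 kinase, by -0.48 (adjusted p = 0.347). The activator E2f1 had means of -0.22, 0.03, 0.05 and 0.07 on the 4 days.

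Mitosis genes, a comparison list, had a larger median difference; the gap between the lists was not tested. Of 40 measured, 37 were below 0 in Day 28 against Day 2, with a median of -0.73 beside -0.25 for the replication genes, 30 without overlap (75%, against 14.4% of all rows), and 2 called lower, Cks1b (-0.87, adjusted p = 0.00587) and Kif2c (-0.84, adjusted p = 0.0465), beside 2.01% of all rows called lower. On Day 10 replicate 3 their median was -2.29, and on replicates 1 and 2 it was -0.88 and -0.89. That array was thus low in mitosis genes as well as in replication genes.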

How the data were processed

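Each of the 12 arrays was deposited by the authors as 1 column of log2 ratios of cells to reference RNA, 17664 rows without missing values. The base of the log was taken as 2, and R 2.13.0 is named per the submitters' processing notes; for scanning, background correction and normalization the method was not given in the labels or files used, so background per probe is unknown and the number of arrays limits the precision. Columns were centred on their medians (largest absolute median 0.0132), and 10 genes printed 17 times each were averaged, leaving 17504 rows. GEO's platform annotation named 14010 rows with 1 gene, 13 with several and 3641 with none. For genes with several probes the probe with the lowest ID was used.

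With limma 3.58.1 (R 4.3.3; lmFit and eBayes) the model held 1 mean for each day over the 12 arrays, and p-values were adjusted by Benjamini-Hochberg over all rows with a threshold of 0.05. The procedure was tested on simulated data. The members and lists were chosen with earlier results of these data known. Genes were named by role, by call and by size of difference. Alternatives covered quantile normalization, no centring, a replicate block, array weights, 6 arrays only, rows with 1 gene, averaged probes, a robust prior and arrays left out; those on the day of the highest and lowest mean were added after seeing the data.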

Additional observations from a re-analysis of the deposited data

How the results depend on the processing

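In Day 28 against Day 2 the count of members called, 2 with all arrays, was 1 with quantile normalization and with the replicate block, 7 with array weights and without Day 5 replicate 2 and Day 10 replicate 3, 10 from the 6 arrays compared, and 1 to 4 with each array left out. Calls over all rows moved as well, from 5.69% to between 3.02% (without Day 28 replicate 2) and 9.73% (without Day 5 replicate 2 and Day 10 replicate 3). The median difference was -0.16 with quantile normalization. By the F test the count of 3 became 1 with quantile normalization and with the replicate block, 6 without Day 5 replicate 2 and Day 10 replicate 3, and 0 (without Day 2 replicate 2 or 3) to 4 with each array left out, while the share of all rows went from 5.32% to between 2.94% and 10.1%. In Day 5 against Day 2 the count of 0 became 1 without Day 5 replicate 2 and Day 10 replicate 3, and the median lay between -0.38 and -0.094 with each array left out. In Day 10 against Day 5 the median, -0.15 with all arrays, was 0.12 without both of those arrays, 0.03 with array weights, -0.07 with quantile normalization, and -0.28 to 0.07 with each array left out. In Day 28 against Day 10 it was 0.13 with all arrays, -0.060 without both, 0.03 with array weights, 0.06 with quantile normalization, and -0.060 to 0.26 with each array left out. Same-numbered arrays of different days did not deviate together in a common direction (r from -0.27 to 0.20). That check cannot show whether the numbers pair the samples, and the main fit treated them as unpaired. The causes of these moves were not tested.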
